A study of Mus musculus with 24 samples.

Results

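The cytochrome P450 genes of subfamily 2C were followed in mouse liver after chronic Keap1 silencing. The genes described were Cyp2c29, Cyp2c37, Cyp2c38, Cyp2c39, Cyp2c50, Cyp2c54, Cyp2c55 and Cyp2c70. Each of these 8 genes had exactly 1 probe set annotated to it alone, so that none was missing, and these were 8 of 45037 probe sets tested. The mouse annotation lists 15 protein-coding Cyp2c genes, all on chromosome 19. The probe sets of the array represent 11 of them, and Cyp2c40, Cyp2c66, Cyp2c67 and Cyp2c69 had no probe set of their own.

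Cyp2c enzymes are heme proteins of the endoplasmic reticulum of hepatocytes, which take electrons from NADPH-cytochrome P450 reductase and oxidize drugs, steroids and fatty acids. Several members of the mouse family convert arachidonic acid to epoxyeicosatrienoic acids, and the nuclear receptors CAR and PXR are known to raise the transcription of some of them when liver meets foreign compounds. Keap1 holds the transcription factor Nrf2, encoded by Nfe2l2, at a low level by handing it to a ubiquitin ligase, and Nrf2 turns on genes of detoxification through antioxidant response elements.

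Liver RNA of 24 male C57BL6/J mice was hybridised to 1 Affymetrix array per mouse, with 8 mice each for siKeap1-1, siKeap1-2 and siControl. siKeap1-1 and siKeap1-2 are different chemically modified siRNAs against Keap1 and siControl is a modified scrambled siRNA. Every mouse, controls included, was 8 weeks old at the start and received a Western diet, which was high in fat, with 6% sucrose in the drinking water, together with a tail vein injection of 1 mg siRNA per kg every week for 7 weeks. The lipid nanoparticles that carried the siRNA reach hepatocytes above all. The methods say that the livers of each group came from 4 fed and 4 fasted animals. The labels do not give the feeding state of a mouse, which therefore stayed within the spread of each group.

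Signals are log2 values of the robust multi-array average (RMA), on which a difference of 1 is a doubling. Array medians lay between 5.84 and 5.96. By the brighter of its 2 probe sets, Keap1 averaged 7.50 ± 0.22 with siKeap1-1, 8.26 ± 0.21 with siKeap1-2 and 9.63 ± 0.27 with siControl (SD, n = 8 each), and neither siKeap1 group overlapped with siControl (limma adjusted p = 2.28e-12 and 1.89e-08). The second Keap1 probe set was dimmer, with means of 5.04, 5.02 and 5.46 in the same order of groups, and fell by 0.42 (adjusted p = 0.0262) and 0.44 (adjusted p = 0.026), with 6 of 8 siKeap1-1 arrays and 8 of 8 siKeap1-2 arrays below all controls. Nqo1, a classical Nrf2 target, was higher by 2.22 and 1.91. Markers of hepatocytes were strong on every array, with a mean signal of their 9 measured genes between 14.16 and 14.34. A control probe set for 18S ribosomal RNA differed between arrays, with 10.17 to 11.43 with siKeap1-1, 10.45 to 11.12 with siKeap1-2 and 8.86 to 10.77 with siControl, where replicates 1 to 3 stood between 10.34 and 10.77 and replicates 4 to 8 between 8.86 and 9.54. With siKeap1-1 the same numbers were set apart in the other direction. Replicates 1 to 3 stood there between 10.17 and 10.44 and replicates 4 to 8 between 11.17 and 11.43. With siKeap1-2 these sets overlapped. The fits below that limit arrays by replicate number limit those of siControl only.

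With siKeap1-1, Cyp2c54 and Cyp2c50 rose and Cyp2c38 fell, so that 3 of the 8 genes passed an adjusted p of 0.05 in limma, against 8.99% of all probe sets (4.51% higher and 4.48% lower). With siKeap1-2, Cyp2c38 alone passed, lower than siControl, against 6.1% of all probe sets (3.15% higher and 2.96% lower). Without adjustment 4 and 2 of the 8 genes were under p of 0.05. The share of all probe sets at that level is not given here. This count and later ones at an unadjusted p therefore have no background beside them. The median log2 fold change of the 8 genes was 0.14 with siKeap1-1 and 0.06 with siKeap1-2, beside 0.02 and 0.003 over all probe sets. Both comparisons share the siControl arrays, so they are not independent of each other. With the 18S signal added to the fit no gene of the family passed (2 of 8 at an unadjusted p under 0.05 with each siRNA), and over all probe sets 2.94% and 0.673% did. When the controls were limited to siControl replicates 1 to 3, none passed either (3 and 2 of 8 at an unadjusted p under 0.05), with 3.42% and 0.795% over all probe sets. In liver tissue, fewer cells of a type and less RNA per cell cannot be told apart.

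**Figure D1:**
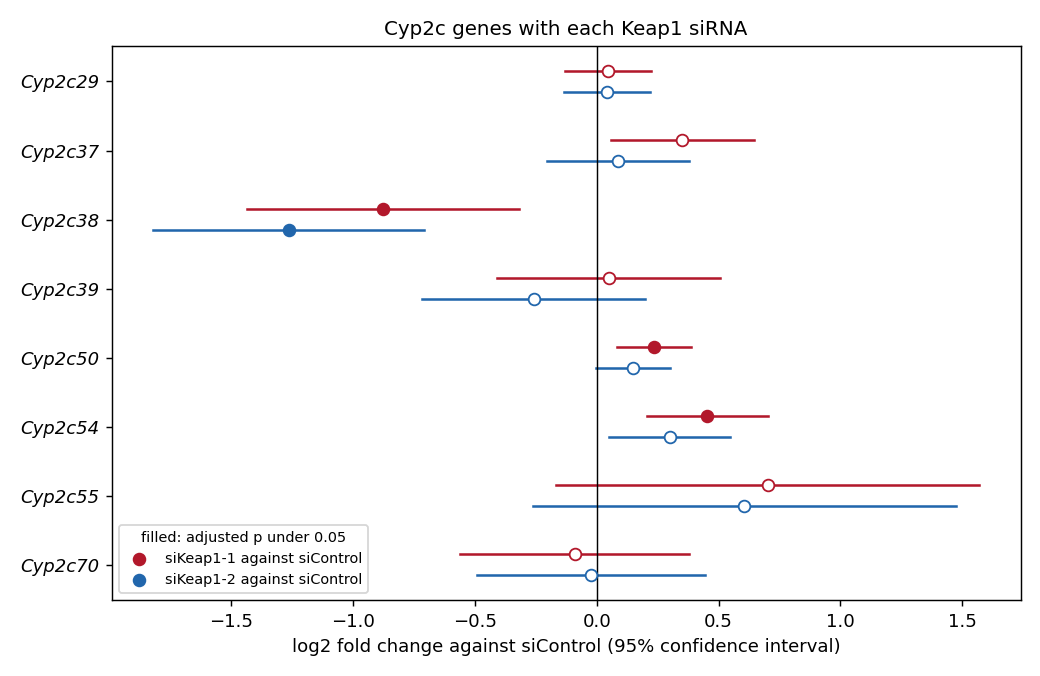
Log2 fold change (horizontal axis) of each of the 8 Cyp2c genes with siKeap1-1 (red) and siKeap1-2 (blue) against siControl, n = 8 arrays per group. Lines are 95% confidence intervals from limma, and filled points passed an adjusted p of 0.05. Cyp2c38 lies left of zero with both siRNAs, at -0.88 and -1.26, and Cyp2c54 lies right of it at 0.45 and 0.30.

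Among the genes for arachidonic acid epoxygenases, Cyp2c38 changed most. Its signal ranged between 7.27 and 8.64 with siKeap1-1 (median 8.21), between 7.01 and 8.31 with siKeap1-2 (median 7.66) and between 8.15 and 9.94 with siControl (median 8.63). The groups overlapped: 3 of 8 siKeap1-1 arrays and 6 of 8 siKeap1-2 arrays lay below the lowest siControl array. Cyp2c38 fell by 0.88 on the log2 scale with siKeap1-1 (SE 0.27, 95% interval -1.43 to -0.32, adjusted p = 0.041 in limma), which is a fold of 0.544. With siKeap1-2 it fell by 1.26 (interval -1.82 to -0.71, adjusted p = 0.00556), a fold of 0.416. siControl replicates 2, 4 and 5 stood at 9.94, 9.80 and 9.72, and the other 5 siControl arrays between 8.15 and 8.79. Leaving out any of these 3 arrays ended the call with siKeap1-1, where the log2 fold change was then -0.74, -0.76 and -0.77 (adjusted p = 0.0794, 0.0822 and 0.0833), and so did leaving out siKeap1-1 replicate 1, 6, 7 or 8 (adjusted p 0.0562 to 0.0884), limiting the controls to siControl replicates 4 to 8 (0.0545) or fitting these 2 groups alone (0.0741). With siKeap1-2 the call held when any single array was left out (adjusted p 0.00307 to 0.014).

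Cyp2c39, whose enzyme also epoxidizes arachidonic acid and hydroxylates retinoic acid, is the neighbour of Cyp2c38 in the order of annotated genes apart from a pseudogene. Its signal lay between 4.83 and 5.76 with siKeap1-1 (median 5.14), between 4.57 and 5.27 with siKeap1-2 (median 4.86) and between 4.59 and 6.21 with siControl (median 4.82). siControl replicates 2, 4 and 5 were again the highest of their group, at 5.68, 6.21 and 6.08. The group means differed by less than the spread between arrays, and siKeap1-1 differed from siControl by 0.05 on the log2 scale (interval -0.41 to 0.51, adjusted p = 0.929). For siKeap1-2 this difference was -0.26 (interval -0.72 to 0.20, adjusted p = 0.563). The first of these values changed sign with the choice of controls. The probe set of Cyp2c39 was dim, with group means of 4.92 to 5.23 that lay below the median of every array, so a change could be missed.

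Cyp2c29, on the other side of Cyp2c39 in that order, encodes one of the major epoxygenases of mouse liver and is inducible by phenobarbital. Its arrays covered a narrow range of 12.64 to 13.26 with siKeap1-1 (median 12.86), 12.69 to 13.26 with siKeap1-2 (median 12.82) and 12.66 to 13.03 with siControl (median 12.87). The groups lay on top of each other. The difference was 0.05 with siKeap1-1 (interval -0.13 to 0.22, adjusted p = 0.803) and 0.04 with siKeap1-2 (interval -0.13 to 0.22, adjusted p = 0.836), so the intervals leave room for folds of 0.914 to 1.17 and of 0.911 to 1.16.

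The starts of these neighbours are shown because Cyp2c38 passed the test and Cyp2c39 and Cyp2c29 did not, a contrast between genes that was not itself tested. Sequences are the 150 bases before the annotated start in RefSeq (GRCm38.p6), read along the gene. They were chr19:39463076-39463225 on the minus strand for Cyp2c38, and on the plus strand chr19:39347196-39347345 and chr19:39510672-39510821 for both annotated starts of Cyp2c39 and chr19:39286935-39287084 for Cyp2c29. The start of Cyp2c38 lies between both annotated starts of Cyp2c39, so the order of genes given above holds for start 1 only. Capitals mark matches on either strand to CAAAGTC, a core of sites for the liver factor HNF4, or to TATAAA, the TATA box.
Cyp2c38: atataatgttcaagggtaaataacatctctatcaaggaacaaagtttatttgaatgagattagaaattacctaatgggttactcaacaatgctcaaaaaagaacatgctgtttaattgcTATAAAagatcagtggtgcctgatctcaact
Cyp2c39 start 1: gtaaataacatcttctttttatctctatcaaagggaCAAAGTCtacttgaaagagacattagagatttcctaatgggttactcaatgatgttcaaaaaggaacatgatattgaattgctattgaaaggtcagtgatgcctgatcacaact
Cyp2c39 start 2: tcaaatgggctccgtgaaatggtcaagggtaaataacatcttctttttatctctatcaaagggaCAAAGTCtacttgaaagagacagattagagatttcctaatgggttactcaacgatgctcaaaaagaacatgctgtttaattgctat
Cyp2c29: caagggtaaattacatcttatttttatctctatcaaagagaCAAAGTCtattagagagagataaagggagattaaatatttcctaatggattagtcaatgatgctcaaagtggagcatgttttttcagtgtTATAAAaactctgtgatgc

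The 250 bases before each start were aligned, and identity is given over the length of the alignment, gaps included. Cyp2c38 was 75.8% identical to Cyp2c39 start 1, 71% to Cyp2c39 start 2 and 68.8% to Cyp2c29. Cyp2c38 had a TATA box match at 31 bases before the start and no match to CAAAGTC. Cyp2c29 also had a TATA box match, beginning 19 bases before the start, and neither start of Cyp2c39 had one in the bases searched. The stretch of Cyp2c39 start 2 ends within letters that in Cyp2c38 run into its TATA box match. Bases past the annotated start were not searched, so a match across it would be missed. Cyp2c29 and both starts of Cyp2c39 had a match to CAAAGTC, which began 109, 114 and 86 bases before the start. Of 32851 RefSeq promoters of the same length, 3.84% held CAAAGTC and 12.4% held TATAAA. The core of the antioxidant response element, TGACNNNGC, occurred in 10.2% of all promoters and in none of the 8 windows of the family. The direct repeat with 4 bases between its arms, a form bound by CAR, PXR and other nuclear receptors, occurred in 0.103% of all promoters and in none of the 8. A match is a description of letters, and more distant sites were not examined.

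Cyp2c37, Cyp2c54 and Cyp2c50 follow each other further along the chromosome. Cyp2c54 and Cyp2c50 encode epoxygenases of arachidonic and linoleic acid, and Cyp2c37 is known as a hydroxylase of arachidonic acid that phenobarbital induces through CAR. Cyp2c54 rose with siKeap1-1, where its signal was 13.14 to 13.60 (median 13.35), against 12.56 to 13.41 with siControl (median 12.77). With siKeap1-2 it was 12.70 to 13.51 (median 13.23). The groups overlapped, since siControl replicate 2 reached 13.41 and replicates 4 and 5 both 13.18, with the other 5 siControl arrays between 12.56 and 12.83. Only 3 siKeap1-1 arrays and 2 siKeap1-2 arrays lay above all controls. The log2 fold change was 0.45 with siKeap1-1 (SE 0.12, interval 0.21 to 0.70, adjusted p = 0.0177), a fold of 1.37. With siKeap1-2 it was 0.30 (interval 0.05 to 0.55, adjusted p = 0.149) and did not pass. The rise with siKeap1-1 passed whichever array was left out (adjusted p 0.00421 to 0.0418), and without siControl replicate 2 the value with siKeap1-2 also passed, at 0.37 (adjusted p = 0.048). With the 18S covariate the value with siKeap1-1 was 0.29.

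Cyp2c50 showed the smallest spread of the family within groups (SD 0.14). Its signal lay between 13.38 and 13.67 with siKeap1-1 (median 13.49), between 13.15 and 13.61 with siKeap1-2 (median 13.46) and between 13.08 and 13.62 with siControl (median 13.23). siControl replicate 2, at 13.62, stood above the other 7 controls, which were at 13.34 or lower. Cyp2c50 rose by 0.24 with siKeap1-1 (SE 0.073, interval 0.08 to 0.39, adjusted p = 0.043), a fold of 1.18. With siKeap1-2 the difference was 0.15 (interval -0.003 to 0.30, adjusted p = 0.254). The call with siKeap1-1 was lost in 11 of 24 omissions of a single array (siKeap1-1 replicates 1, 3, 4, 5, 6 and 8 and siControl replicates 1, 3, 6, 7 and 8; adjusted p 0.00676 to 0.0911 over all omissions), when arrays were centred on their medians (adjusted p = 0.0576) and with these 2 groups alone in the fit (adjusted p = 0.0673). Its value was 0.10 with the 18S covariate and 0.14 against siControl replicates 1 to 3.

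Cyp2c37 lay between 12.28 and 13.29 with siKeap1-1 (median 12.69), between 12.17 and 12.96 with siKeap1-2 (median 12.46) and between 11.95 and 12.73 with siControl (median 12.36). The log2 fold change was 0.35 with siKeap1-1 (interval 0.06 to 0.64, adjusted p = 0.128) and 0.09 with siKeap1-2 (interval -0.21 to 0.38, adjusted p = 0.789), so neither passed after adjustment. siControl replicates 2, 4 and 5 were once more the highest controls, at 12.73, 12.73 and 12.64. Cyp2c54, Cyp2c50 and Cyp2c37 are close relatives, and since the probes themselves were not examined, signal from a related transcript cannot be told apart from that of the named gene. The same limit holds for the other genes of the family, Cyp2c38 included.

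The starts of Cyp2c50, which passed with siKeap1-1, and of Cyp2c37, which did not, are shown as the most alike pair of the family. They were chr19:40089529-40089678 and chr19:39992274-39992423, both on the plus strand, with capitals as above, and no promoter of Cyp2c54 was examined.
Cyp2c50: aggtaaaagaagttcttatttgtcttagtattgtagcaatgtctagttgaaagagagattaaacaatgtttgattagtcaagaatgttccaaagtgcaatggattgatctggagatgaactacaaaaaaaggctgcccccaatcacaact
Cyp2c37: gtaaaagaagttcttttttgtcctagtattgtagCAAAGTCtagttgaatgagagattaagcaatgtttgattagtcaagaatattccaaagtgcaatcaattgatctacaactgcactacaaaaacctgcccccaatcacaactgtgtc

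These promoters were 84.3% identical over the length of their alignment, gaps included, whereas the other pairs of windows lay between 49.2% and 75.8%. Cyp2c37 had 2 matches to CAAAGTC, beginning 184 and 116 bases before the start, of which the nearer is in the stretch shown. Cyp2c50 had none. Across the family, 5 of 8 windows held CAAAGTC and 4 of 8 held TATAAA, and 7 of the 8 genes had a window.

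**Figure D2:**
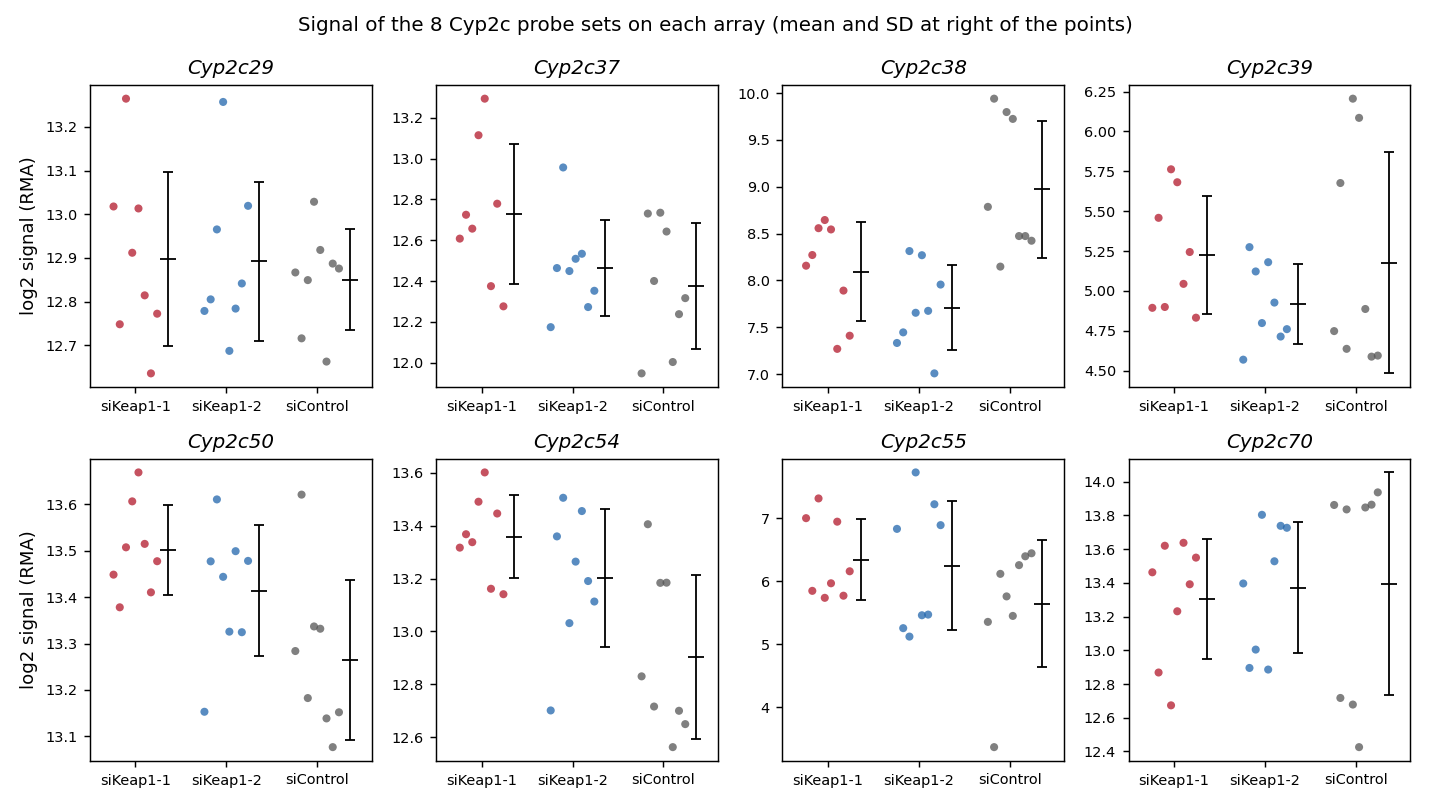
Log2 RMA signal (vertical axis, a separate scale for each gene) on each array with siKeap1-1, siKeap1-2 and siControl, with the mean and SD at the right of each group (n = 8). In Cyp2c38, Cyp2c39 and Cyp2c54 a few siControl arrays stand above the rest, at 9.72 to 9.94 in Cyp2c38, and in Cyp2c70 3 siControl arrays stand below, at 12.43 to 12.72.

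Cyp2c55 encodes an enzyme that hydroxylates arachidonic acid, is best known from the large intestine and can be induced in liver through CAR and PXR. It was the most variable gene of the family, with a within-group SD of 0.91, larger than that of 99.7% of probe sets. Its signal lay between 5.74 and 7.32 with siKeap1-1 (median 6.06), between 5.12 and 7.73 with siKeap1-2 (median 6.15) and between 3.36 and 6.45 with siControl (median 5.94). The lowest value belonged to siControl replicate 2, and the next control was at 5.36. The log2 fold changes of 0.70 (interval -0.17 to 1.57, adjusted p = 0.341) and 0.61 (interval -0.26 to 1.47, adjusted p = 0.452) did not pass, and the intervals reach folds of 2.97 and 2.78. Without siControl replicate 2 they were 0.38 (adjusted p = 0.589) and 0.28 (adjusted p = 0.714), and with the 18S covariate they were 1.72 (adjusted p = 0.0701) and 1.58 (adjusted p = 0.214).

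Cyp2c70 makes the muricholic acids that set mouse bile apart from human bile. It lay between 12.67 and 13.64 with siKeap1-1 (median 13.43), between 12.89 and 13.80 with siKeap1-2 (median 13.46) and between 12.43 and 13.94 with siControl (median 13.84). The controls fell into 2 sets, with replicates 2, 4 and 5 at 12.72, 12.68 and 12.43 and the other 5 between 13.84 and 13.94. The log2 fold change was -0.09 with siKeap1-1 (interval -0.56 to 0.38, adjusted p = 0.86) and -0.02 with siKeap1-2 (interval -0.49 to 0.45, adjusted p = 0.97). The sign of the value with siKeap1-2 changed with the choice of controls.

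Between the siRNAs no gene of the family passed (adjusted p 0.593 to 0.993), against 0.162% of all probe sets (0.0799% higher and 0.0822% lower with siKeap1-1), and none was under an unadjusted p of 0.05. Cyp2c38 was 8.09 ± 0.53 with siKeap1-1 and 7.71 ± 0.45 with siKeap1-2 (SD, n = 8), a difference of 0.39 (interval -0.17 to 0.94). For Cyp2c54 the difference was 0.16 (interval -0.09 to 0.40) and for Cyp2c50 it was 0.09 (interval -0.06 to 0.24). The calls of Cyp2c54 and Cyp2c50 with siKeap1-1 alone are therefore not shown to be particular to that siRNA.

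The genes differed in how much single mice varied. The within-group SD was 0.14 for Cyp2c50, 0.17 for Cyp2c29, 0.25 for Cyp2c54 and 0.30 for Cyp2c37, but 0.48 for Cyp2c39, 0.49 for Cyp2c70, 0.58 for Cyp2c38 and 0.91 for Cyp2c55, with a median of 0.20 over all probe sets. Much of this lay along a single axis, the first principal component of the deviations from the group means, which held 16.9% of the variance over all probe sets. It held 74.0% for Cyp2c70, 71.7% for Cyp2c55, 68.0% for Cyp2c39, 60.2% for Cyp2c54, 52.1% for Cyp2c37, 40.8% for Cyp2c38, 27.2% for Cyp2c50 and 11.3% for Cyp2c29. The sign of the axis is arbitrary and was set so that Cyp2c70 fell along it. With that sign, Cyp2c37, Cyp2c38, Cyp2c39, Cyp2c50 and Cyp2c54 were higher on arrays at its positive end, and Cyp2c29 and Cyp2c55 were lower there, like Cyp2c70.

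**Figure D3:**
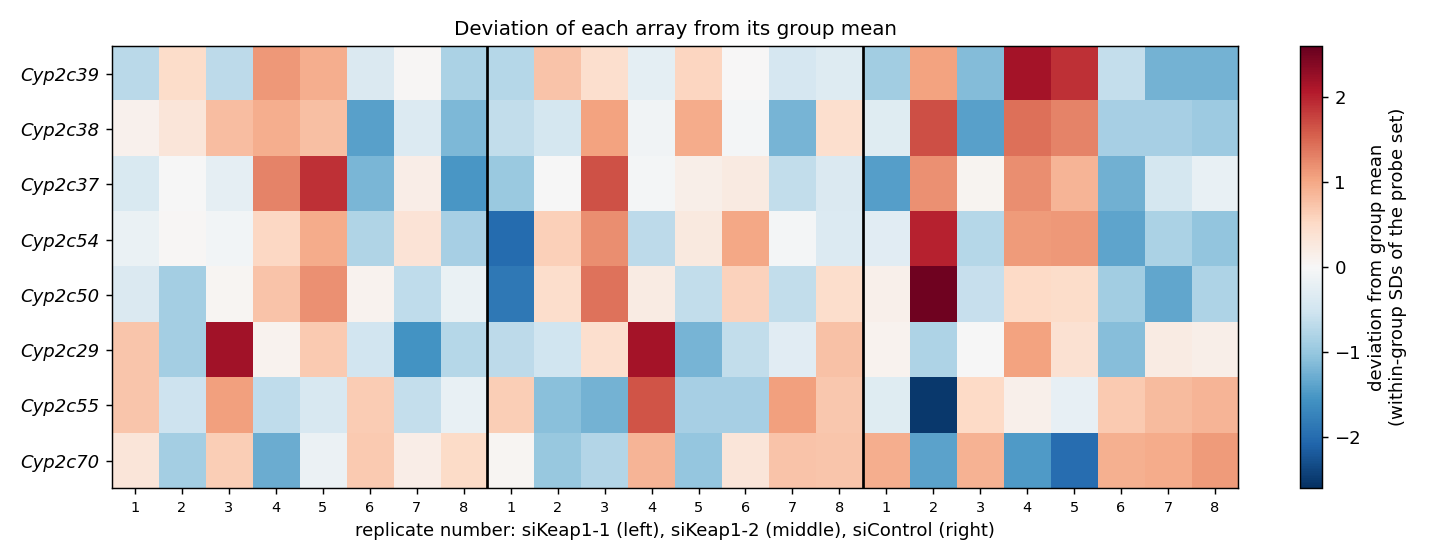
Deviation of each array from its group mean, in units of the within-group SD of each gene (colour scale), for siKeap1-1, siKeap1-2 and siControl from left to right and replicates 1 to 8 within each group. In siControl replicates 2, 4 and 5, Cyp2c39, Cyp2c38, Cyp2c37, Cyp2c54 and Cyp2c50 are above their mean and Cyp2c70 is below it.

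Arrays of every group lay at both ends of this axis. Its score was positive for siKeap1-1 replicates 2, 4, 5 and 7, for siKeap1-2 replicates 2, 3, 5 and 6 and for siControl replicates 2, 4 and 5, and the scores nearest zero were -0.076 and 0.105. Because the arrays form such sets, correlations over them are given as descriptions only (n = 24 arrays, deviations from group means). Cyp2c39 and Cyp2c70 ran opposite to each other (r = -0.91), as did Cyp2c38 and Cyp2c70 (r = -0.76). Cyp2c50 and Cyp2c54 ran together (r = 0.81), and Cyp2c29 followed none of the other genes closely, with its highest r at 0.49 for Cyp2c55. Adding the axis as a covariate left the fold changes as they were by construction and narrowed their errors. Then 5 genes passed with siKeap1-1, Cyp2c37 (adjusted p = 0.0262) and Cyp2c55 (adjusted p = 0.0481) in addition, and 2 with siKeap1-2, where Cyp2c54 was added (adjusted p = 0.0233). The covariate was computed from the deviations of these same arrays, the Cyp2c genes included, so it takes up part of their spread by construction. These adjusted p are therefore too small, and the added calls are no support for a change. The share of all probe sets passing in this setting is not given here.

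Over the same deviations, the other genes most like each member were sought among 18185 genes. Cyp2c54 was most like Eif1a (r = 0.90), Ttpa, the tocopherol transfer protein of liver (0.89), and Nr1i3, which encodes CAR itself (0.89). Cyp2c37 was most like Hrg (0.86), Cyp2e1 (0.84) and Sugct (0.82), Cyp2c50 was most like Calr (0.86), Slc25a20 (0.86) and Sel1l (0.85), and Cyp2c38 was most like Plin4, a lipid droplet protein (0.85), Creld1 (0.83) and Bsdc1 (0.82). Cyp2c39 was most like 4930480G23Rik (0.91), the bile acid and conjugate exporter gene Abcc3 (0.89) and the peroxisomal carnitine acyltransferase gene Crot (0.88). For Cyp2c70 the nearest genes were Ces2b (0.91), Ccnyl1 (0.90) and the glycogen phosphorylase gene Pygl (0.89), for Cyp2c55 they were Nhej1 (0.89), Dbf4 (0.89) and Xdh (0.88), and for Cyp2c29 they were Saa4 (0.77), Lactb (0.76) and Gphn (0.76).

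Of the 3 other Cyp2c genes measured, none passed with either siRNA, although 2 and 1 were under an unadjusted p of 0.05. With siKeap1-1, Cyp2c68 and Cyp2c23 passed once dim probe sets, that of Cyp2c65 among them, were left out. How many of all probe sets passed in that setting is not given here. In the fit with all probe sets, Cyp2c68 differed from siControl by -0.32 for siKeap1-1 (adjusted p = 0.0578) and by -0.23 for siKeap1-2 (adjusted p = 0.221). There Cyp2c23 differed by -0.14 (adjusted p = 0.0688) and -0.04 (adjusted p = 0.737). Of 9 measured genes outside the family listed around the cluster, none passed, with 2 under an unadjusted p of 0.05 for each siRNA. Taken by the brightest probe set of each gene, 9.49% of 18193 genes passed with siKeap1-1 (4.82% higher and 4.67% lower) and 6.6% with siKeap1-2 (2.85% higher and 3.75% lower), which is the background of the lists that follow.

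Among 17 measured transcription factors known to act on Cyp2c or related genes, 2 fell with siKeap1-1 and 3 with siKeap1-2, and none rose. Their median log2 fold change was -0.12 and -0.09, beside 0.01 and -0.01 over all genes. Nfe2l2 fell by 0.63 with siKeap1-1 (adjusted p = 4.14e-05) and by 0.49 with siKeap1-2 (adjusted p = 0.00117). Cebpa, a factor of hepatocyte identity, fell by 0.16 with siKeap1-1 (adjusted p = 0.0313), and Nr1i2, which encodes PXR, fell by 0.32 with siKeap1-2 (adjusted p = 0.0378), as did Nr1h4, the gene of the bile acid receptor, by 0.24 (adjusted p = 0.0392). None of these 3 genes passed with only the 2 groups in the fit (adjusted p = 0.0928, 0.0608 and 0.0693). The call of Cebpa was lost in 5 of 24 omissions of an array (siKeap1-1 replicates 2 and 3 and siControl replicates 1, 6 and 8), that of Nr1i2 in 8 (siKeap1-2 replicates 1, 2, 4, 7 and 8 and siControl replicates 3, 4 and 5) and that of Nr1h4 in 10 (siKeap1-2 replicates 1, 3, 4, 5, 7 and 8 and siControl replicates 4, 5, 7 and 8). Nr1i3 had log2 fold changes of 0.49 (adjusted p = 0.139) and 0.29 (adjusted p = 0.444). Hnf4a, the gene of HNF4 itself, stood at -0.005 (adjusted p = 0.967) and -0.01 (adjusted p = 0.904).

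Of 8 measured P450 genes known as CAR and PXR targets, 2 rose with each siRNA and none fell. Cyp2b10, the usual marker of CAR activity in mouse liver, averaged 10.6 ± 0.92 with siKeap1-1, 10.7 ± 1.00 with siKeap1-2 and 7.12 ± 2.04 with siControl (SD, n = 8), and 7 of 8 arrays of either siKeap1 group lay above all controls. It rose by 3.52 (adjusted p = 0.00106) and 3.60 (adjusted p = 0.00137), and its relative Cyp2b9 by 1.67 (adjusted p = 0.0222) and 2.01 (adjusted p = 0.00928). Cyp3a11, the main PXR target, had log2 fold changes of -0.38 (adjusted p = 0.0877) and -0.32 (adjusted p = 0.189). Over the 8 genes the median was 0.03 for siKeap1-1 and -0.06 for siKeap1-2. Cyp2b13, Cyp3a16 and Cyp3a44 weigh on this median with group means of only 2.72 to 3.64, where a fall could be understated. Of these, Cyp3a44 stood at -0.39 (adjusted p = 0.127) and -0.37 (adjusted p = 0.176). Cyp2b13 stood at -0.02 and -0.05 and Cyp3a16 at 0.07 and -0.09. Cyp2a4, Cyp2a5 and Cyp3a41a were listed too but had no probe set annotated to them alone. The paper names Cyp2a4 among the genes regulated by both siRNAs.

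Of 16 other drug-metabolizing P450 genes, 4 rose and 2 fell with siKeap1-1, and 2 rose and 2 fell with siKeap1-2. Cyp2g1 rose by 1.67 (adjusted p = 1.33e-06) and 1.37 (adjusted p = 4.41e-05), and Cyp1a1, a target of the Ah receptor, by 0.73 (adjusted p = 0.00091) and 0.47 (adjusted p = 0.0374). The call of Cyp1a1 with siKeap1-2 was lost in 8 of 24 omissions of an array (siKeap1-2 replicates 3, 4, 7 and 8 and siControl replicates 2, 3, 4 and 7). Cyp1a2 rose by 0.73 with siKeap1-1 (adjusted p = 0.0121) and had 0.51 with siKeap1-2 (adjusted p = 0.102). Cyp2d40 fell by 0.73 (adjusted p = 0.00641) and 0.74 (adjusted p = 0.00825). None of 13 measured genes for the supply of electrons and heme to P450s passed with either siRNA, and 2 were under an unadjusted p of 0.05 in each comparison.

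**Figure D4:**
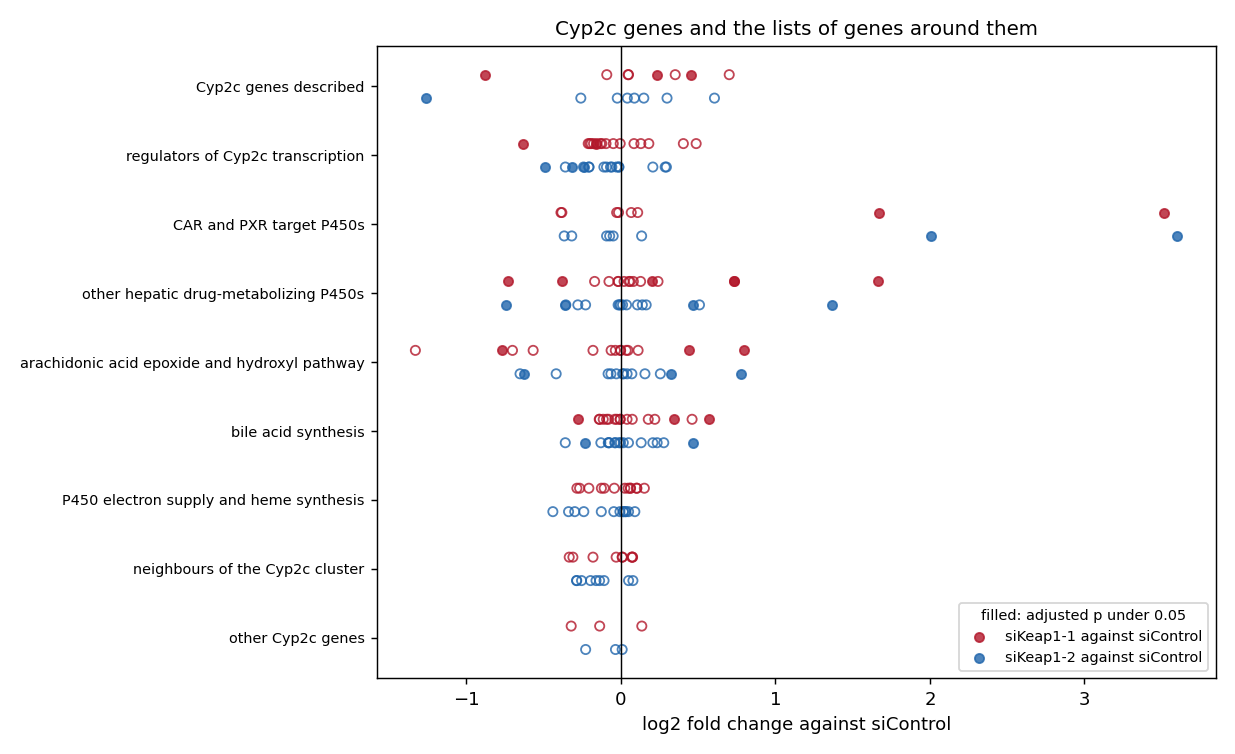
Log2 fold change (horizontal axis) against siControl of the 8 Cyp2c genes and of the genes of 8 lists, 1 point per gene, with siKeap1-1 in red above and siKeap1-2 in blue below. Filled points passed an adjusted p of 0.05. Most points lie near zero, and the points furthest to the right are Cyp2b10 at 3.52 and 3.60.

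The epoxides that Cyp2c enzymes form are hydrolysed by epoxide hydrolases, and other P450 families make related products. Of 14 measured genes of this pathway, 2 rose and 1 fell with each siRNA, and the median was -0.02 for siKeap1-1 and 0.01 for siKeap1-2. Ephx1, the microsomal epoxide hydrolase, averaged 13.87 ± 0.04 with siKeap1-1, 13.85 ± 0.07 with siKeap1-2 and 13.07 ± 0.31 with siControl (SD, n = 8), and all arrays of both siKeap1 groups lay above the controls (log2 fold change 0.80 and 0.78, adjusted p = 3.1e-06 and 6.97e-06). Ephx2, the soluble hydrolase that acts on the epoxides of arachidonic acid, had -0.002 (adjusted p = 0.988) and -0.03 (adjusted p = 0.764). Cyp2j6 rose by 0.44 and 0.33 (adjusted p = 0.00176 and 0.0246), and Cyp2j9, another arachidonic acid P450, fell by 0.77 and 0.63 (adjusted p = 0.00707 and 0.0357). With siKeap1-2, the call of Cyp2j6 was lost without siControl replicate 7, and that of Cyp2j9 in 8 of 24 omissions (siKeap1-2 replicates 2, 3, 4, 5 and 6 and siControl replicates 4, 7 and 8).

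Cyp2c70 acts in bile acid synthesis, and of 17 measured genes of that pathway 2 rose and 1 fell with siKeap1-1 and 1 rose and 1 fell with siKeap1-2, at a median of -0.01 in both comparisons. Acox2, which shortens the side chain, rose by 0.57 (adjusted p = 0.000115) and 0.47 (adjusted p = 0.00167), and Cyp27a1, the sterol 27-hydroxylase, fell by 0.28 (adjusted p = 0.00424) and 0.23 (adjusted p = 0.0204). The value of Cyp27a1 depended on the probe set, and as a mean over its probe sets it was -0.05 (adjusted p = 0.842) and -0.18 (adjusted p = 0.387). Cyp7b1 rose by 0.34 with siKeap1-1 (adjusted p = 0.0212). The rate-limiting Cyp7a1 had -0.14 (adjusted p = 0.807) and -0.36 (adjusted p = 0.473), and Cyp8b1 had 0.22 (adjusted p = 0.544) and 0.28 (adjusted p = 0.447).

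None of 9 hepatocyte markers passed in limma (2 and 1 at an unadjusted p under 0.05), and their median was -0.04 and -0.02. Of 10 pericentral hepatocyte markers, 2 rose and 1 fell with siKeap1-1 (Rhbg by 1.11, Cyp1a2 as above, and Lhpp, which fell by 0.52 with an adjusted p of 0.0457) and 1 rose with siKeap1-2 (Rhbg by 1.18). The median of the 10 was -0.05 in both comparisons, and 6 and 3 were under an unadjusted p of 0.05. The call of Lhpp was lost in 14 of 24 omissions of an array (siKeap1-1 replicates 1, 2, 3, 6, 7 and 8, siKeap1-2 replicates 1, 3, 6 and 8 and siControl replicates 2, 4, 5 and 6). Of 8 periportal markers, Cyp2f2 alone rose with siKeap1-1, by 0.20 (adjusted p = 0.0116). The 8 markers of Kupffer cells had a mean signal of 9.40 to 10.5 with siKeap1-1, 9.58 to 10.9 with siKeap1-2 and 9.86 to 10.8 with siControl. Their median log2 fold change was -0.16 with siKeap1-1 and -0.11 with siKeap1-2, and 2 passed in each comparison. Timd4, a receptor of resident Kupffer cells, fell by 1.52 (adjusted p = 0.0015) and 1.16 (adjusted p = 0.0183), and Vsig4 fell by 0.60 with siKeap1-1 (adjusted p = 0.018), whereas Marco rose by 1.49 with siKeap1-2 (adjusted p = 0.0122). Bile duct markers had a mean signal of 6.61 to 7.31, 6.46 to 6.91 and 6.44 to 7.11 in the same order of groups. Of the 5 measured, Sox9 alone passed, higher by 0.87 and 0.96, and the list had a median of 0.13 and -0.33. With siKeap1-2 the other 4 lay below zero, with Krt19 at -0.36 (adjusted p = 0.32), Krt7 at -0.33 (adjusted p = 0.211), Epcam at -0.38 (adjusted p = 0.102) and Cldn7 at -0.30 (adjusted p = 0.355). None of 9 stellate cell markers passed (2 and 1 at an unadjusted p under 0.05), whereas 1 of 8 endothelial markers did, Cdh5, which fell by 0.32 with siKeap1-2 (adjusted p = 0.0401, lost in 9 of 24 omissions of an array, which were siKeap1-2 replicates 2, 3, 6 and 8 and siControl replicates 3, 4, 6, 7 and 8), and 1 of 9 lymphocyte markers, Cd4, which fell by 0.55 with siKeap1-1 (adjusted p = 0.00305). The part of these cells in the Cyp2c results was not tested.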

How the data were processed

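Liver RNA of 24 mice was measured on Affymetrix arrays. The deposited values are log2 signals, which the authors obtained by RMA (version not given in the sources used here), and they were used as deposited. Of 45101 probe sets, 64 controls were left out and no filter on low signals was set. The 3 groups entered a single fit in limma 3.58.1 (R 4.3.3, lmFit and eBayes), with Benjamini-Hochberg adjustment over all probe sets and a threshold of 0.05. The procedure was tested on simulated data drawn independently for each probe set. These data held no axis shared between arrays, so the test does not cover that feature of the real arrays. The two-way ANOVA of the methods was not fitted, since the labels give no feeding state. Nothing in the labels says more of the replicates than a number, so p-values measure the spread between these samples. No pair of arrays was identical (their difference had an SD of at least 0.264), and the number of arrays limits precision.

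All 8 genes are reported. Of each list of genes, up to 4 with the largest change among those past the threshold are named, regulators freely, and for each member the 3 genes with the highest correlation. Cyp2c68, Cyp2c23, Cyp3a11, Cyp2b13, Cyp3a16, Cyp3a44, Ephx2, Cyp7a1 and Cyp8b1 are given in addition and were chosen after their values were seen. The members and lists were chosen with earlier results of these data known. Genes are represented by the brightest probe set annotated to them alone (18193 genes). Promoters are from a RefSeq table (GRCm38.p6) and were aligned with Biopython 1.88 in Python 3.11.15. Figures were drawn with matplotlib 3.10.9. Alternatives covered normalization, dim probe sets, moderation, weights, samples in the fit, covariates, controls, thresholds and the omission of each array.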

Additional observations from a re-analysis of the deposited data

Results flagged for a closer look

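Single arrays stood apart from the others of their group for 7 of 105 groups of 8 arrays examined (35 genes), of which 2 were among the 24 groups of the Cyp2c genes. About 1 in 20 groups is marked in this way by chance. Cyp2c37 was 12.96 on siKeap1-2 replicate 3, above the next array at 12.53. Cyp2c55 was 3.36 on siControl replicate 2, below the next array at 5.36.

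The other arrays of this kind concerned genes of the lists. Cyp2g1 was 5.81 on siControl replicate 1 (next 6.64), and Cyp2f2 was 13.31 on siControl replicate 4 (next 13.50). On siKeap1-2 replicate 1, Cyp7b1 was 13.13 (next 13.69) and Rhbg was 8.29 (next 9.05). Marco was 11.17 on siKeap1-1 replicate 8, above the next array at 9.24. The Keap1 signal of the brighter probe set differed between the siRNAs, with a log2 difference of -0.76 for siKeap1-1 minus siKeap1-2 (adjusted p = 0.0022 in limma), whereas that of the dimmer probe set was 0.02 (interval -0.22 to 0.27, adjusted p = 0.974).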

How the results depend on the processing

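With siKeap1-1 the count of Cyp2c genes called, 3, was 1 with only the 2 groups in the fit, 5 with the first residual component as a covariate, 0 with the 18S control probe set as a covariate (2 at an unadjusted p under 0.05), 0 with controls limited to siControl replicates 1 to 3 (3 at an unadjusted p under 0.05), 0 at an adjusted p under 0.01 and 0 at a fold over 2 with an unadjusted p under 0.01 (which Cyp2c38 with its fold of 0.544 missed by size). Leaving out each array gave 1 to 3, with 1 (Cyp2c54) without siKeap1-1 replicate 1, 6 or 8. With siKeap1-2 the count, 1, was 2 with the residual component, 0 with the 18S covariate and 0 with siControl replicates 1 to 3 (2 at an unadjusted p under 0.05 in both), and 1 to 2 over the omissions, with 2 without siControl replicate 2. The log2 fold change of Cyp2c38 was -0.87 and -1.25 in both settings. Between the siRNAs the count was 0 in each setting run. The counts with the residual component carry the limit given above, since that covariate came from these same deviations.

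Signs turned for values near zero. Cyp2c39 with siKeap1-1 was -0.0161 with the 18S covariate and -0.0450 with siControl replicates 4 to 8, and -0.0349 to 0.196 over the omissions. Cyp2c70 with siKeap1-2 was 0.0293 and 0.0220 in these settings, and -0.162 to 0.0538 over the omissions. Cyp2c29 between the siRNAs was -0.00828 after quantile normalization and -0.001004 with array weights. Over the omissions Cyp2c29 was -0.00576 to 0.0841 with siKeap1-1 and -0.0104 to 0.0710 with siKeap1-2. Between the siRNAs Cyp2c29 was -0.0475 to 0.0571, Cyp2c55 was -0.0656 to 0.307 and Cyp2c70 was -0.137 to 0.0222 over the omissions.

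With the replicate number as a block, 2 Cyp2c genes were called with siKeap1-1 (Cyp2c38 and Cyp2c54; Cyp2c50 adjusted p = 0.0562) and 1 with siKeap1-2. Same-numbered arrays did not deviate together (r -0.17 to 0.28, over 0.1 in 2, 5 and 2 of 8 pairs), so the numbers were not taken as pairs.

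Of 39 calls against siControl for named genes outside the family, 28 were lost at a fold over 2 with an unadjusted p under 0.01, 21 with the 18S covariate, 20 with siControl replicates 1 to 3 as the controls, 16 at an adjusted p under 0.01, 8 in at least 1 omission of an array, 7 with siControl replicates 4 to 8, 5 with only the 2 groups in the fit, 4 when all probe sets of each gene were averaged (Cyp27a1 with both siRNAs, Nr1i2 and Cdh5 with siKeap1-2), 2 with the replicate block (Cebpa and Nr1h4), 2 after quantile normalization, 1 with array weights and 1 with the intensity trend and robust prior, and none reversed in any of these. Cyp2b10, Ephx1, Acox2, Cyp2g1, Rhbg and Sox9 kept their call with both siRNAs under the 18S covariate and both choices of controls, whereas Cyp2b9 with siKeap1-1 was at 1.89 (adjusted p = 0.122) and Cyp2j9 at -0.49 (adjusted p = 0.315) with the 18S covariate.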
